A study of Mus musculus with 10 samples.

Results

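A set of 10 genes of lipoprotein lipase action and fatty acid uptake was followed in the iWAT (inguinal white adipose tissue) of males: Lpl, Gpihbp1, Angptl4, Vldlr, Cd36, Fabp4, Fabp5, Pltp, Apoe and Aqp7. They were taken by symbol, and these 10 are among 51826 genes listed in the expression files, of which 33120 had an exon length. All mice were C57BL/6. The fathers' generation (F0) was 10 to 12 weeks old and had itself eaten a control diet (CD, n = 2) or a low protein diet (LPD, n = 2). The F1 mice were sons aged 5 weeks that all ate the control diet, as did their mothers, and differed in the diet of the father, CD (n = 3) or LPD (n = 3, called pLPD for paternal low protein diet). Each library came from 1 mouse, and in F1 the 3 mice of a group had different mothers. Whether they also had different fathers, to whom the diet was given, is not stated in the sources used here. Generation, age and own against paternal diet go together in this design, so those cannot be told apart.

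White adipocytes take up little triglyceride whole. Lipoprotein lipase, which they secrete, is carried to the capillary wall and splits the triglyceride of chylomicrons and very low density lipoproteins there, and the released fatty acids enter the adipocyte, are bound by small cytosolic proteins and are esterified again. The capillary protein GPIHBP1 holds the enzyme in the vessel lumen, ANGPTL4 inactivates it, CD36 and the VLDL receptor help bring lipid to the cell, and FABP4 and FABP5 bind fatty acids inside. PLTP moves phospholipid between lipoproteins, APOE is a ligand by which particles are cleared, and AQP7 is the channel through which adipocytes release glycerol. In subcutaneous fat most of these genes are expressed by the adipocyte, though not by it alone. Gpihbp1 belongs to capillary endothelium, and Apoe, Fabp5 and Pltp are among those also made by macrophages.

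The total of exon reads ran from 6351075 to 10044546 per library, so that 3 reads, taken as the limit of counting, stood for 0.299 to 0.472 CPM (counts per 1000000 exon reads). That limit concerns the error of counting alone. Every one of the 10 genes lay far above it, the lowest being Gpihbp1 with 290 reads in a pLPD library. The share of protein-coding gene reads in introns was 36.0% to 37.5% in F1 CD, 40.7% to 48.4% in pLPD and 36.3% to 37.9% in F0, and mitochondrial ribosomal RNA took 9.29% to 10.5%, 13.5% to 18.2% and 9.59% to 12.4% of reads, in the same order. The third F1 CD library stood apart from the other two of its group, with a chi-square per degree of freedom of 12.6 and 13.1 against them where the other two differed by 4.59. The first pLPD library did so to a lesser degree (8.70 and 9.73 where the other two differed by 4.81), and the pair of F0 LPD libraries differed by 10.8 where the F0 CD pair differed by 5.95. The adipocyte check held against epithelial markers. The genes of a list of adipocyte markers summed to between 14375 and 23857 CPM in every library, and epithelial markers to at most 14.9 CPM. It did not show that adipocyte RNA prevailed over that of stroma. Fibroblast and progenitor markers, with Col1a1 and Col3a1 among them, summed to 20171 and 23829 CPM in F1 CD libraries 1 and 2. Adipocyte markers summed to 14375 and 15393 CPM in the same 2 libraries.

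The promoter windows of the genes that moved with diet in F0 are given here, because Pltp, Aqp7 and Vldlr rose together there and Pltp went the other way in F1. RefSeq windows (build GRCm38.p6, 250 bases before to 50 after a start site) were found for 5 of the 10 genes, namely Pltp, Aqp7, Vldlr, Cd36 and Apoe, with 9 windows in all. Lpl, Gpihbp1, Angptl4, Fabp4 and Fabp5 had no entry. The windows printed 5′ to 3′ on the strand of the gene are the start of Pltp (chr2:164857659-164857958, minus strand), the outermost start of Aqp7 (chr4:41048087-41048386, minus strand) and the inner start of Vldlr (chr19:27216770-27217069, plus strand). Capitals mark the matches to TATAAA and to CCAAT, which reads ATTGG on the other strand.
Pltp: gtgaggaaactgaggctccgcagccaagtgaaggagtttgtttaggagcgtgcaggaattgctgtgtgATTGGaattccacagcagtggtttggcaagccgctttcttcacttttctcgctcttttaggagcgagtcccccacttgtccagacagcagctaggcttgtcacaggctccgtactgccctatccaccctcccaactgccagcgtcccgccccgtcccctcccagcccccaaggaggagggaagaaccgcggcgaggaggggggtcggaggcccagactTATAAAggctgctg
Aqp7: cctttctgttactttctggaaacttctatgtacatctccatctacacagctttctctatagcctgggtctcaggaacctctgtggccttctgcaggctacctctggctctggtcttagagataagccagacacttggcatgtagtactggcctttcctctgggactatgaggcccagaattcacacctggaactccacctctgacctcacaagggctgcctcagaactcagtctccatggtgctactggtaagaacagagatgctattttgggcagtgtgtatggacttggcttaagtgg
Vldlr: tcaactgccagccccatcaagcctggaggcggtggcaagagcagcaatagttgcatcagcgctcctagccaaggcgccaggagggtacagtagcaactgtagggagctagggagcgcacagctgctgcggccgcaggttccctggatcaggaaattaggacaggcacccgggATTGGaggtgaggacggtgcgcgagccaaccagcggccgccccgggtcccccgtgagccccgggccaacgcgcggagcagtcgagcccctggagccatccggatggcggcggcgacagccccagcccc

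A set of 6 motifs was searched on both strands of the 9 windows and of all 32851 windows in the table. TATAAA was in the window of Pltp and in a single window of Apoe, and in 13.6% of all windows. Relative to the start site it began at 36, so after it, in Pltp and at -96 in Apoe. CCAAT was in those of Pltp, Cd36 and Vldlr (37.4% of all), as was the GC box GGGCGG (35.7% of all). None of the 9 windows held CACGTG (7.15% of all), a direct repeat of AGGNCA with 1 base between the copies, the kind bound by PPAR with RXR (0.381% of all), or the same with 4 bases between, the kind bound by LXR with RXR (0.253% of all). CCAAT and GGGCGG were each in 3 of the 9 windows, close to their shares of all windows, and Cd36, which held both, was not called in F0. The Vldlr matches lay in its inner window only, and the printed Aqp7 window held none of the 6.

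Measured per length of exon in RPKM, the 10 genes spread widely. Fabp4 was far above the others with a mean of 3047 RPKM over the 10 libraries, between the rank of 6 and of 9 among all genes in each library. Apoe (362 RPKM), Lpl (329 RPKM) and Cd36 (281 RPKM) formed the next tier, and their ranges over libraries overlapped from one gene to the next in both generations. Fabp5 (31.7 RPKM), Angptl4 (27.6 RPKM), Pltp (20.8 RPKM) and Aqp7 (20.6 RPKM) came about an order of magnitude lower. Gpihbp1 (9.41 RPKM) and Vldlr (7.14 RPKM) were lowest, and their ranges overlapped too. Neighbours separated without overlap in both generations at only 2 steps, from Fabp4 to the second gene and from Cd36 to the fifth. The 10 genes together took 1.32% to 1.79% of exon reads.

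**Figure D1:**
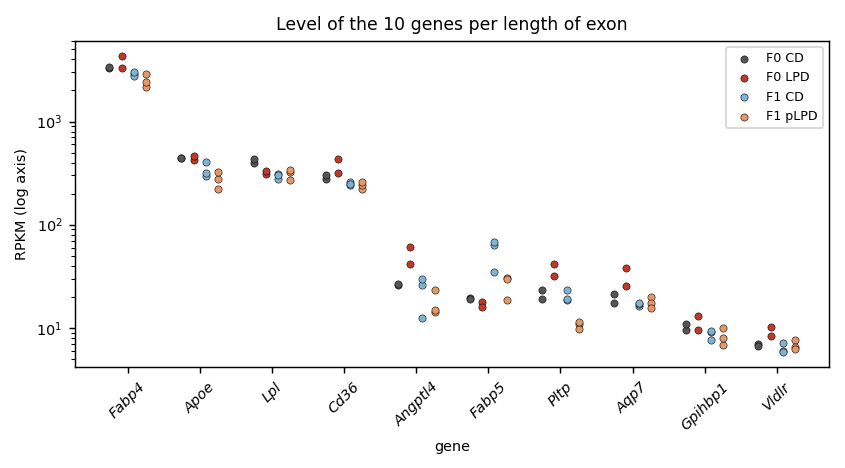
RPKM of each of the 10 genes (log axis) in the 10 libraries, with 1 point per library and a colour for each group (F0 CD, F0 LPD, F1 CD, F1 pLPD). Fabp4 stands alone near 3047 RPKM on average, Apoe, Lpl and Cd36 lie between 222 and 466 RPKM, and Vldlr and Gpihbp1 are lowest.

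All 10 genes passed the filter on low counts in each of the 4 comparisons and were tested in it. In the text that follows CPM are scaled within each generation, log2 fold changes come from edgeR's quasi-likelihood test with Benjamini-Hochberg adjustment over all tested genes, and a gene is called where its adjusted p is under 0.05. In F1, pLPD against CD, 1 of the 10 was called (Pltp, lower), where 1.17% of all tested genes were called. In F0, LPD against CD, 4 of the 10 were called (Angptl4, Pltp, Aqp7 and Vldlr), all higher, where 2.5% of all tested genes were called in either direction and 1.18% as higher. In F0, where each group held 2 mice, all 4 groups in 1 fit called 1 of them (Pltp), and limma on log2 RPKM called none. The median log2 fold change of the 10 was 0.02 in F1 and 0.34 in F0, against 0.01 and 0.00 over all tested genes.

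**Figure D2:**
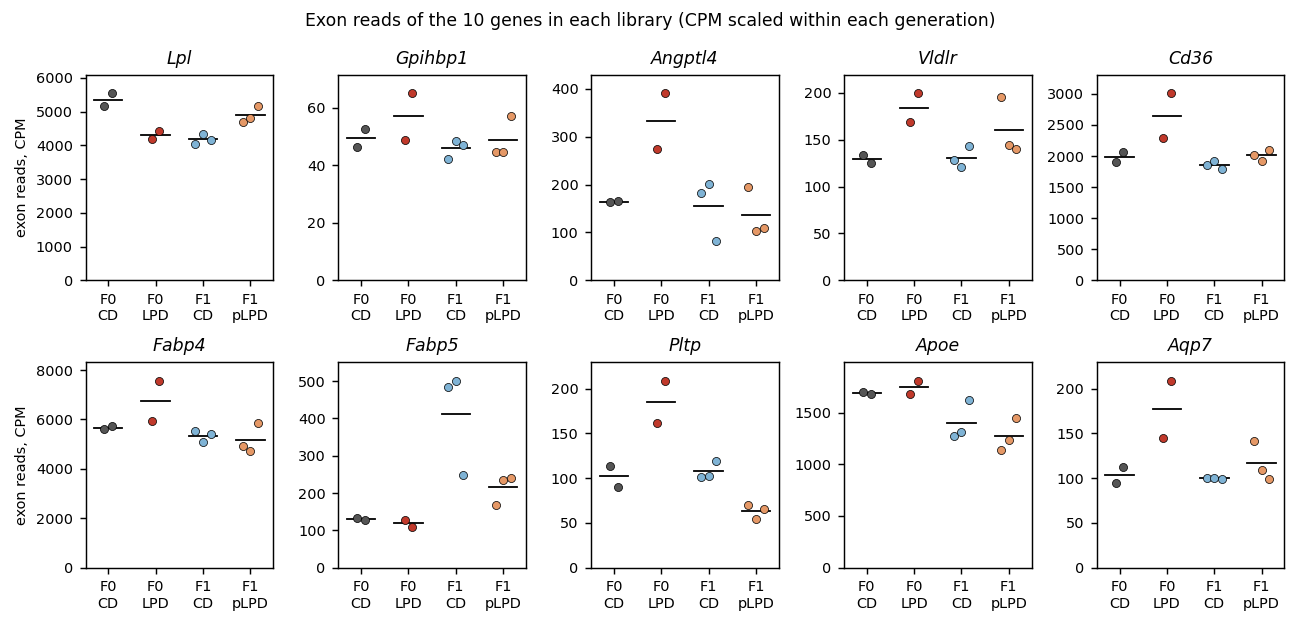
Exon reads of the 10 genes in CPM (linear axes from 0), 1 panel per gene, 1 point per library and a bar at each group mean. Pltp was at 161 and 209 CPM in F0 LPD and at 54.7 to 70.5 CPM in F1 pLPD, with both CD groups in between, and Fabp5 was highest in 2 of the 3 F1 CD libraries.

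The groups did not overlap for 4 of the 10 genes in F1, where this held for 20.1% of all tested genes, and for 7 of the 10 in F0, where with 2 libraries a group it held for 46.6% of all. Two-sided exact permutation tests, run gene by gene, have a smallest possible p of 0.1 at 3 mice against 3 and of 0.333 at 2 against 2. They gave that p for Lpl, Cd36, Fabp5 and Pltp in F1 and for all but Gpihbp1, Fabp5 and Apoe in F0.

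Lpl (ENSMUSG00000015568, chromosome 8 from 68880491 to 68907448, plus strand, mm10 as for all genes here), the lipase itself, stood at 4039.6, 4332 and 4162 CPM in F1 CD and at 4701, 4808 and 5166 CPM in pLPD. In F0 the order was the other way, with 5169.8 and 5541 CPM in CD and 4198 and 4424 CPM in LPD. On this scale every pLPD library lay above every F1 CD library, and every F0 LPD library below both F0 CD libraries. RPKM are scaled to a library total close to all gene reads, introns included, and the intron share was higher in pLPD. In RPKM the F1 groups overlapped, with 276 to 307 in CD and 273 to 337 in pLPD. The F1 log2 fold change came down to 0.06 with limma on log2 RPKM. The part of the scaling in this was not tested. Neither difference was called: the log2 fold change was 0.23 ± 0.11 (SE, n = 3 against 3, adjusted p = 0.345) in F1 and -0.31 ± 0.16 (n = 2 against 2, adjusted p = 0.411) in F0.

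The difference between those 2 responses, an interaction term in 1 fit over all 10 libraries, was 0.53 for Lpl, with an adjusted p of 0.128. It passed the threshold in 4 of 14 other settings with every library kept. These were the likelihood ratio test (adjusted p = 0.0299), DESeq2 (0.000255), no filter on low counts (0.0307) and intron reads in place of exon reads. Over all genes they called 546, 333, 890 and 189, in that order, against 189 as reported. Uniquely matching reads (0.53, adjusted p = 0.172) and junction reads (0.49, adjusted p = 0.219) did not call it. Leaving out 1 library gave 0.48 to 0.59. Intron reads of Lpl, which can come from unspliced RNA, were 80.5 to 94.1 per 1000000 gene reads in F1 CD and 94.6 to 118 in pLPD, and 106 and 122 in F0 CD against 85.7 and 80.0 in F0 LPD. The intron share over all protein-coding genes was also higher in pLPD, as given above, and its part in the F1 values was not tested. Fitted over all genes, the intron reads gave a log2 fold change of 0.37 (adjusted p = 0.0996) in F1, -0.38 (0.0632) in F0 and an interaction of 0.77 (adjusted p = 0.0202). Exon and intron reads of Lpl therefore had the same sign in each generation, and opposite signs between the generations.

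Gpihbp1 (ENSMUSG00000022579) is the capillary anchor of the enzyme. Its levels were 42.3, 48.4 and 47.3 CPM in F1 CD, 44.5, 44.7 and 57.3 CPM in pLPD, 46.4 and 52.8 CPM in F0 CD and 49.0 and 65.1 CPM in F0 LPD. The groups overlapped in both generations, and the log2 fold changes were 0.08 (adjusted p = 0.793) in F1, where limma on log2 RPKM gave the other sign, and 0.20 (adjusted p = 0.560) in F0. With 290 to 559 reads per library it was the most thinly counted of the 10. Of 12 endothelial markers none was called in F1 or F0 by edgeR, 11 of the 12 were negative in F1, 4 had an unadjusted p under 0.05 in F1 and 2 in F0, with sums of 997 to 1317 CPM in CD and 944 to 1092 CPM in pLPD. At that unadjusted p, 923 of all 14049 genes tested in F1 were higher and 1231 lower, and 1098 and 1196 of 14581 in F0.

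Angptl4 (ENSMUSG00000002289, chromosome 17 from 33773750 to 33781575, minus strand), the secreted inhibitor of the lipase that rises with fasting and with PPAR ligands, showed the largest diet difference of the 10 in F0. It was at 163 and 166 CPM in CD and at 274 and 391 CPM in LPD, so that the groups did not overlap. The log2 fold change was 1.02 ± 0.15 (adjusted p = 0.0179), a fold of 2.02. The call was lost without the first F0 CD library (1.01, adjusted p = 0.0634) and with all 4 groups in 1 fit (1.02, adjusted p = 0.245). In F1 the libraries scattered within each group, with 183, 202 and 81.8 CPM in CD and 195, 102 and 109.6 CPM in pLPD, and the log2 fold change of -0.20 ± 0.30 was not called (adjusted p = 0.812).

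Intron reads of Angptl4 rose in F0 as the exon reads did (log2 fold change 1.09, adjusted p = 0.0046). In F1 they were 7.50, 9.47 and 4.03 per 1000000 gene reads in CD and 16.7, 11.7 and 8.24 in pLPD, a log2 fold change of 0.85 that was not called (adjusted p = 0.204) and whose sign was opposite to that of the exon reads. Introns held 7.93% to 8.83% of the gene's reads in F1 CD and 14.3% to 19.7% in pLPD, while the share over all protein-coding genes was also higher in pLPD, as given above. The part of that shift in the result was not tested.

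The ratio of Lpl to Angptl4 in RPKM, the enzyme over its inhibitor, was 15.3 and 16.2 in F0 CD and 7.40 and 5.47 in F0 LPD. In F1 it was 10.7, 10.4 and 24.6 in CD and 11.6, 22.7 and 22.7 in pLPD, so that the F1 groups overlapped.

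Among the receptors, Vldlr (ENSMUSG00000024924, chromosome 19 from 27216484 to 27254231, plus strand), which binds triglyceride-rich particles beside the lipase, was at 134 and 126 CPM in F0 CD and at 169 and 199.6 CPM in F0 LPD. The groups did not overlap, and the log2 fold change was 0.51 ± 0.11 (adjusted p = 0.0464), a fold of 1.42. This call was close to the threshold and was lost when any 1 of 3 of the 4 F0 libraries was left out (adjusted p = 0.111 and 0.220 without either CD library, and 0.203 without the second LPD library). With junction reads it was 0.42 (adjusted p = 0.136). In F1, 128, 120.5 and 143 CPM in CD stood against 195, 144 and 140.1 CPM in pLPD, which overlapped, with a log2 fold change of 0.29 (adjusted p = 0.304).

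Cd36 (ENSMUSG00000002944), the fatty acid translocase of the adipocyte membrane, was not called in either generation. It was at 1853, 1920.2 and 1797 CPM in F1 CD and at 2019, 1927 and 2100.4 CPM in pLPD, and at 1909.8 and 2064 CPM in F0 CD and 2285 and 3010.4 CPM in F0 LPD. The treated libraries lay above the controls in each generation, in F1 by a margin of 1927 against 1920.2 CPM only. The log2 fold changes were 0.12 (adjusted p = 0.611) in F1, where limma on log2 RPKM gave the other sign, and 0.41 ± 0.17 (adjusted p = 0.277) in F0.

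Fabp4 (ENSMUSG00000062515), the main fatty acid binding protein of fat cells, was not called in either generation. It was at 5526, 5092 and 5414 CPM in F1 CD and 4929, 4731 and 5868 CPM in pLPD, and at 5595 and 5731 CPM in F0 CD and 5953 and 7576 CPM in F0 LPD. The F1 groups overlapped and the F0 groups did not, and the log2 fold changes were -0.05 (adjusted p = 0.899) and 0.26 (adjusted p = 0.587). Its intron reads were higher in F0 LPD by a log2 fold change of 0.58, which was called (adjusted p = 0.0341).

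Fabp5 (ENSMUSG00000027533, chromosome 3 from 10012548 to 10016607, plus strand), its epidermal-type relative, had the largest point estimate of the 10 in F1 and the largest difference between the control groups. It stood at 483, 501 and 247 CPM in F1 CD and at 169, 236 and 240.2 CPM in pLPD, while in F0 it was at 132 and 128 CPM in CD and 128 and 110.2 CPM in LPD. The lowest F1 CD library, the third, was only just above the highest pLPD library. The log2 fold change in F1 was -0.93 ± 0.23, not called (adjusted p = 0.0734). Leaving out 1 F1 library gave -1.19 to -0.76, called only without the third F1 CD library (-1.19, adjusted p = 0.000647) and not without any other, the highest adjusted p being 0.280. With junction reads in place of exon reads it was -0.90 and was called (adjusted p = 0.0187). In F0 the log2 fold change was -0.13 (adjusted p = 0.615), and the difference between the generations' responses was -0.81 (adjusted p = 0.325).

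Counting of Fabp5 carries an uncertainty that the other 9 genes have to a far lesser degree. Only 56.3% to 59.4% of its exon reads matched a single place in the genome, against at least 90.7% for Pltp and at least 99.3% for each of the others. Of the 3597 different words of 36 bases in its transcripts, 8.37% also occur in transcripts of 7 other genes, among them processed pseudogenes such as Gm6166 and Gm14328. Uniquely matching reads alone gave a log2 fold change of -0.92 (adjusted p = 0.0569) in F1. The ratio of Fabp4 to Fabp5 in RPKM was 45.6, 40.4 and 87.2 in F1 CD, 116, 79.8 and 97.3 in pLPD and 168 to 274 in F0.

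Pltp (ENSMUSG00000017754), the phospholipid transfer protein, was the only one of the 10 called in both generations, and it moved in opposite directions. In F1 it was at 101, 102 and 119 CPM in CD and at 70.5, 54.7 and 65.1 CPM in pLPD. In F0 it was at 114 and 90.5 CPM in CD and at 161 and 209 CPM in LPD. No library of a treated group overlapped its controls, and the 5 control libraries of both generations lay together between 90.5 and 119 CPM.

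The log2 fold change of Pltp was -0.76 ± 0.11 in F1 (adjusted p = 0.0114), a fold of 0.589, and 0.86 ± 0.15 in F0 (adjusted p = 0.0241), a fold of 1.81. The difference between the responses was -1.63 ± 0.20 and was called (adjusted p = 0.00541). It was the only interaction called among the 10 genes, where 1.25% of all tested genes were called. The F1 call was lost without the first F1 CD library (log2 fold change -0.80, adjusted p = 0.0580) or without the second pLPD library (-0.67, adjusted p = 0.0634), and the F0 call without the second CD library (0.70, adjusted p = 0.0922) or the second LPD library (0.66, adjusted p = 0.0867). The F1 call was also lost with the exon share of reads, which was lower in every pLPD library, as a covariate (-0.97, adjusted p = 0.116), a fit in which all F1 calls came down from 164 to 11 genes. In each of these the direction was kept.

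The 3′ end of Pltp (chromosome 2, positions 164839518 to 164857711 in mm10, minus strand) overlaps Ctsa on the other strand by 1515 bases, and 13.1% of the 36-base words of Pltp transcripts lie in Ctsa transcripts. Whether the counting used strand is not given in the sources used here. Ctsa, the lysosomal carboxypeptidase cathepsin A, named here because of this overlap, was at 123 to 136 CPM in F1 CD and at 116 to 131 CPM in pLPD, with log2 fold changes of -0.04 (adjusted p = 0.854) in F1 and -0.04 (adjusted p = 0.902) in F0. Reads across exon-exon junctions of Pltp were 48.6, 53.2 and 69.2 per 1000000 exon reads in F1 CD, 40.3, 29.9 and 37.5 in pLPD, 63.3 and 48.7 in F0 CD and 84.3 and 107 in F0 LPD. Fitted over all genes, they gave -0.71 (adjusted p = 0.00992) in F1, 0.80 (adjusted p = 0.0248) in F0 and an interaction of -1.50 (adjusted p = 0.00103), each called.

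Intron reads of Pltp separated less in F1. They numbered 121, 146 and 96 in the F1 CD libraries and 118, 67 and 78 in the pLPD libraries, with a log2 fold change of -0.33 (adjusted p = 0.517), so that the groups overlapped. In F0 the intron reads rose by 0.83 on the log2 scale (adjusted p = 0.0259), and the interaction on intron reads was -1.16 (adjusted p = 0.0914).

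**Figure D3:**
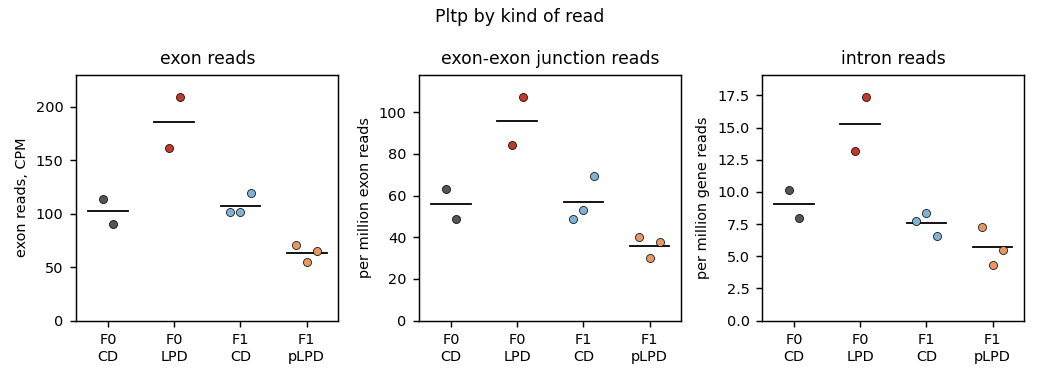
Pltp in each library by kind of read: exon reads in CPM, exon-exon junction reads per 1000000 exon reads, and intron reads per 1000000 gene reads (linear axes from 0, bars at group means). F0 LPD is above F0 CD in all 3 panels, whereas F1 pLPD is below F1 CD without overlap in the exon and junction panels and overlaps it in the intron panel.

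Apoe (ENSMUSG00000002985), the lipoprotein ligand made by both adipocytes and macrophages, did not pass the threshold in any of the diet comparisons. It was at 1270.2, 1312 and 1617 CPM in F1 CD, 1135, 1231 and 1449 CPM in pLPD, 1695 and 1682 CPM in F0 CD and 1682 and 1809 CPM in F0 LPD. The groups overlapped in F1, and the log2 fold changes were -0.14 (adjusted p = 0.654) in F1 and 0.05 (adjusted p = 0.913) in F0.

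Aqp7 (ENSMUSG00000028427, chromosome 4 from 41033074 to 41048139, minus strand), the glycerol channel of the adipocyte, was at 94.1 and 112 CPM in F0 CD and at 145 and 209 CPM in F0 LPD. The groups did not overlap, and the log2 fold change of 0.77 ± 0.17 was called (adjusted p = 0.0496), a fold of 1.71. The adjusted p was just under the threshold, and the call was lost without either CD library (0.183 and 0.0646) and without the second LPD library (0.168). Intron reads, which made up 25.5% of this gene's reads on average, gave 0.73 (adjusted p = 0.0146). In F1 the libraries were at 99.8, 100.1 and 99.0 CPM in CD and 142, 109 and 99.2 CPM in pLPD. These overlapped, with a log2 fold change of 0.23 (adjusted p = 0.409). The difference between the generations' responses was not called for Aqp7 (-0.56, adjusted p = 0.318), Angptl4 (-1.22, adjusted p = 0.271) or Vldlr (-0.22, adjusted p = 0.708).

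**Figure D4:**
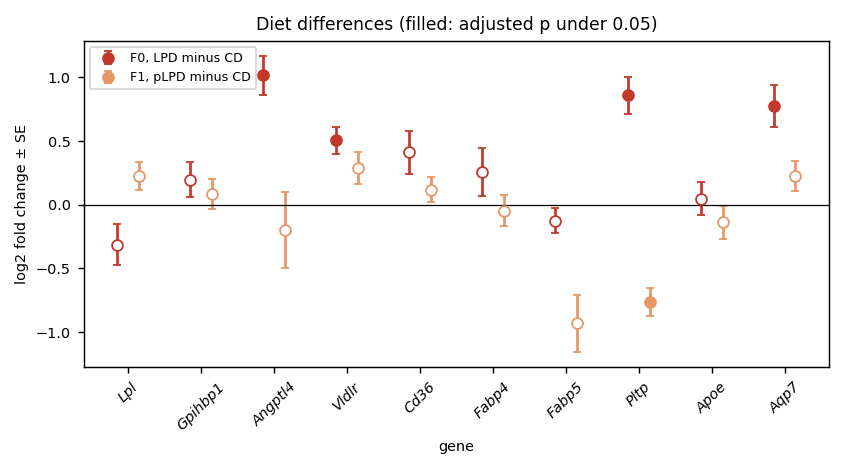
Log2 fold change ± SE of the 10 genes for LPD minus CD in F0 (2 against 2 libraries) and pLPD minus CD in F1 (3 against 3), filled where the adjusted p is under 0.05. Pltp is filled on both sides of 0, Angptl4, Vldlr and Aqp7 are filled above 0 in F0 only, and the Fabp5 point in F1 is the lowest but open.

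The F0 CD and F1 CD groups, which differ in generation, age and library set at once, were compared to see how the genes stood without either low protein diet. Of the 10 genes 2 were called, 1 higher and 1 lower, where 18.9% of all tested genes were called (8.78% higher and 10.1% lower) and 49.9% had groups that did not overlap. Lpl was higher in F0 CD by a log2 fold change of 0.36 ± 0.11 (adjusted p = 0.0348). Leaving out any 1 of F0 CD library 1 or 2 or F1 CD library 1 or 2 ended that call (adjusted p from 0.0724 to 0.238), as did uniquely matching reads (0.36, adjusted p = 0.0520), intron reads (0.22, adjusted p = 0.200) and junction reads (0.14, adjusted p = 0.497). Fabp5 was lower in F0 CD by -1.65 ± 0.25 (adjusted p = 0.000678), with every F0 library of either diet below every F1 library. Pltp, Vldlr, Angptl4, Aqp7, Cd36 and Gpihbp1 were not called there. Fabp4 was not called with exon reads and was called higher in F0 CD with intron reads (0.51, adjusted p = 0.00432), and Apoe was at 0.27 (adjusted p = 0.169) with exon reads and at 0.61 (adjusted p = 0.000741) with junction reads. Marker lists differed between these groups too: 5 of 11 adipocyte markers were higher in F0 CD and all 11 were positive, 5 of 7 brown and beige and 5 of 12 endothelial markers were lower, and of 9 fibroblast and progenitor markers 4 were lower and 1 higher. Of 12 macrophage markers none was called by edgeR (5 at an unadjusted p under 0.05). At that unadjusted p, 2364 of all 15111 tested genes were higher and 2595 were lower. The part of these lists in the Lpl and Fabp5 results was not tested.

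Markers of other cells moved with some of these results. Over all tested genes 1.02% were called as lower and 0.142% as higher in F1, and 1.32% and 1.18% in F0. Of 12 macrophage markers 7 fell in F1 (Adgre1, C1qa, C1qc, Cd163, Csf1r, Fcgr1 and Lyz2) and none rose, and their sum was 1631 to 1979 CPM in F1 CD and 1348 to 1492 CPM in pLPD, beside the fall of Pltp. In F0 1 of the 12 fell (Cd163), with sums of 1638 to 1682 CPM in CD and 1543 to 1685 CPM in LPD, where Pltp rose. At an unadjusted p under 0.05, 4 of the 12 were lower in F0 and 0 higher. Of all 14581 genes tested there, 1196 were lower and 1098 higher at that p. Tissue from whole depots cannot tell fewer cells of a type from less RNA per cell, and the part of macrophage content in the F1 result was not tested. Of 7 brown and beige adipocyte markers 5 rose in F0 (Ucp1, Elovl3, Cidea, Cpt1b and Cox8b), with sums of 162 and 314 CPM in CD and 731 and 862 CPM in LPD, beside the rise of Angptl4, Pltp, Aqp7 and Vldlr. In F1 the same list summed to 1275 to 1906 CPM in CD and 854 to 2515 CPM in pLPD, and 1 of the 7 rose (Ppargc1a).

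Skeletal muscle markers were present in the F0 libraries, with sums of 1748 and 2711 CPM in CD and 871 and 1203 CPM in LPD. Of the 11, 6 fell in F0, where 1.32% of all tested genes were called as lower. They summed to 51.4 to 213 CPM in F1, and all 11 were higher in F0 CD than in F1 CD. Adipocyte markers summed to 21193 and 22487 CPM in F0 CD and to 19541 and 23857 CPM in F0 LPD, so that their sums overlapped. Of the 11, 1 fell (Retn, resistin) and 8 were positive. At an unadjusted p under 0.05, 4 were higher and 2 lower, as were 1098 and 1196 of all 14581 genes tested in F0. The sums lean on Cfd, whose mean was 7060 CPM in F0 CD and 4033 CPM in F0 LPD. In F1 the adipocyte markers summed to 14375 to 18535 CPM in CD and 17033 to 20981 CPM in pLPD. None of the 11 was called by edgeR (1 at an unadjusted p under 0.05) and 8 were positive. Lpl was higher in pLPD in CPM, but this was not called and the groups overlapped in RPKM. None of 9 fibroblast and progenitor markers was called in F1 by edgeR (7 at an unadjusted p under 0.05), all 9 were negative, and their sums were 14272 to 23829 CPM in CD and 10316 to 13213 CPM in pLPD. At that unadjusted p, 923 of all 14049 genes tested in F1 were higher and 1231 were lower. All 11 B and T lymphocyte markers were positive in F1, none was called by edgeR (6 at an unadjusted p under 0.05), and their sums were 493 to 574 CPM in CD and 539.6 to 720.3 CPM in pLPD. In F0 1 of the 11 rose (Ms4a1), with sums of 443 and 514 CPM in CD and 529 and 598 CPM in LPD. Of 4 epithelial markers tested in F1 2 fell, Krt18 (-4.84) and Krt8 (-3.82), and the list's sums were 10.5 to 14.9 CPM in CD and 1.54 to 4.96 CPM in pLPD. The pLPD means of Krt18 (0.104 CPM) and Krt8 (0.184 CPM) lay under the limit of 3 reads, 0.423 to 0.472 CPM there. The size of these 2 falls is therefore uncertain. The part of each of these lists in the results for the 10 genes was not tested.

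**Figure D5:**
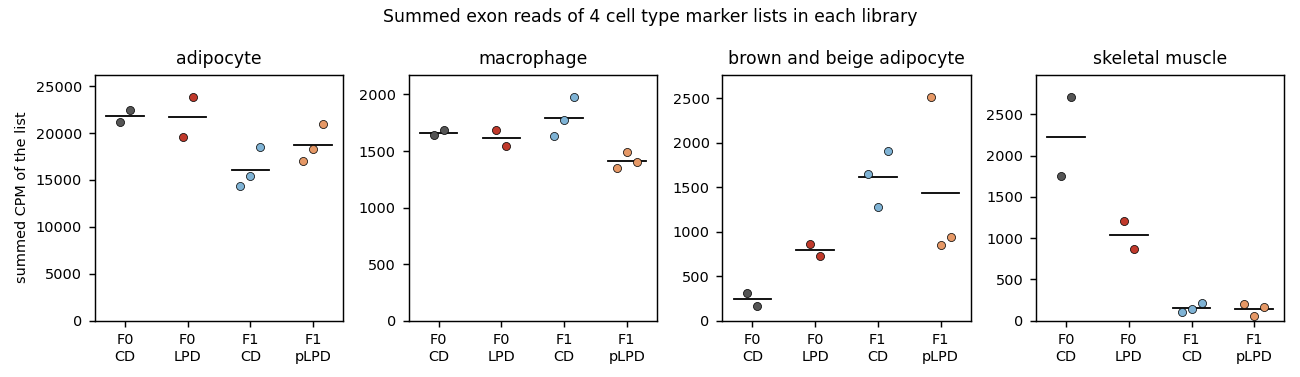
Summed CPM of the adipocyte, macrophage, brown and beige adipocyte and skeletal muscle marker lists in each library (linear axes from 0, bars at group means). Macrophage sums are 1348 to 1492 CPM in F1 pLPD and 1631 to 1979 CPM in F1 CD, and brown and beige sums are 731 and 862 CPM in F0 LPD and 162 and 314 CPM in F0 CD.

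A wider list of 70 genes of the same pathway (maturation and secretion factors of the lipase, other angiopoietin-like proteins, apolipoproteins, lipoprotein receptors, fatty acid transporters, aquaglyceroporins and the nuclear receptors above them) had 67 members in the files. In F1 56 were tested and none was called by edgeR's quasi-likelihood test, 17 had an unadjusted p under 0.05 (6 higher and 11 lower), and DESeq2 called 3. Over all genes, 923 of 14049 were higher and 1231 lower at that unadjusted p, and DESeq2 called 335. The smallest adjusted p were those of Apoc1 (log2 fold change -0.45, adjusted p = 0.0680), Furin (-0.48, adjusted p = 0.0703) and Slc27a1 (-0.44, adjusted p = 0.101). Apoc1 encodes a small apolipoprotein that slows lipase action, Furin a protease that cleaves the lipase and its angiopoietin-like inhibitors, and Slc27a1 a fatty acid transport protein. The median log2 fold change of the list in F1 was -0.01, against 0.01 over all tested genes.

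In F0 54 of the wider list were tested, 5 rose and none fell by edgeR on exon reads, where 1.18% of all tested genes were called as higher and 1.32% as lower. At an unadjusted p under 0.05, 11 of the list were higher and 7 lower, as were 1098 and 1196 of all 14581 tested genes. Intron reads called 3 as higher and 3 as lower, and DESeq2 called 7 and 1. The 5 that rose on exon reads were Fabp3, the heart-type fatty acid binding protein (log2 fold change 1.62, adjusted p = 0.00223), the cholesterol transporter Abcg1 (1.05, adjusted p = 0.00783), Apoc1 (0.80, adjusted p = 0.00995), glycerol kinase Gk (1.37, adjusted p = 0.0113) and the nuclear receptor Ppara (1.12, adjusted p = 0.0249). The list's median was 0.06, against 0.00 over all tested genes. Of these 5, Apoc1 and Abcg1 had interaction terms that were called, -1.25 (adjusted p = 0.00578) and -0.99 (adjusted p = 0.0192), both in the direction that Pltp took, and no other gene of the 57 tested there was called.

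Between the control groups 9 of 57 wider-list genes were higher in F0 CD and 10 were lower, where 8.78% and 10.1% of all tested genes were. The 19 calls came down to 10 without F0 CD library 1 and to 5 without F0 CD library 2. The higher ones with the smallest adjusted p were Cav1 (log2 fold change 0.80), Clu (0.41), Pcsk6 (0.59), Angptl2 (0.74), Apod (0.59) and Vegfb (0.36). The lower ones were Apoc1 (-1.20), Angptl8 (-2.72), Furin (-0.63), Slc27a4 (-0.50), Gk (-2.00) and Tcf15 (-1.16). ANGPTL8 is an insulin-induced partner of the lipase inhibitors, and TCF15 is a transcription factor of capillary endothelium.

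The genes whose levels ran most like those of 4 of the members were sought by Pearson's r of log2 CPM over the 10 libraries after the mean of each generation was subtracted, among 9936 genes. For Lpl they were Mocs1 (0.94), Rora (0.94) and Lrp12 (0.94), and for Gpihbp1 St13 (0.95), Nedd4 (0.94) and Ghr (0.93). For Fabp5 they were Pgd (0.99), Ric8b (0.98) and Lss (0.97), and for Apoe Lmna (0.98), Dennd2a (0.95) and Cast (0.95). Among the 10 themselves, measured in the same way, Vldlr with Aqp7 (0.89) and Cd36 with Aqp7 (0.88) were the closest pairs and Lpl with Pltp (-0.86) the most opposed. These values share their libraries, and with them the diet groups, depth and cell makeup, and describe 10 libraries only.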

How the data were processed

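RNA of iWAT from 10 mice was sequenced by the authors as rRNA-depleted, strand-specific paired-end libraries and processed in CLC Genomics Workbench (version 9.5.1 as their methods state) against mm10. The deposited data, 1 set per library, give read counts per gene (total exon, uniquely matching exon, exon-exon junction, intron and all gene reads) and RPKM. The authors computed RPKM from exon reads, exon length and library size. That size was close to all gene reads, introns included. In the first pLPD library it was 16497252, beside 16147913 gene reads and 6351075 exon reads. Whether counting used strand is not given in the sources used here.

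Total exon read counts were tested in edgeR 4.0.16 (R 4.3.3): low counts were filtered by filterByExpr, libraries scaled by TMM, and quasi-likelihood F tests adjusted by Benjamini-Hochberg over all tested genes, with a threshold of 0.05. F1 and F0 were each fitted alone, and the interaction and the control groups in 1 fit of all 10 libraries. Alternatives were the likelihood ratio test, DESeq2 1.42.0, limma 3.58.1 on log2(RPKM + 0.1) and log2(RPKM + 1), other scalings, filters and kinds of read, the exon share as covariate, a replicate block and leaving out each library. Junction reads were added after the data were seen. All 10 genes are described in both diet comparisons. For the interaction and the control groups the calls cover all 10, and values are given for some of them. Wider-list genes are named by smallest adjusted p at a mean of at least 1 CPM, up to 6 a direction, or the 3 smallest where none passed, and the 3 genes most like a member by r at a mean of at least 10 CPM. The genes and lists were chosen with earlier results of these data known. Scripts were tested on simulated data. Promoter windows are from RefSeq. Each library came from its own mouse, but with 2 or 3 mice a group p-values measure the spread between few animals. In F1 that spread is between sons, and how many fathers they had is not stated.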

Additional observations from a re-analysis of the deposited data

Results flagged for a closer look

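One result differed between the generations by a test of the difference itself. The response of Pltp, pLPD minus CD in F1 less LPD minus CD in F0, was -1.63 on the log2 scale in edgeR's quasi-likelihood fit over all 10 libraries (SE 0.20, adjusted p = 0.00541). It was lower in 3 of 3 pLPD libraries than in any F1 CD library and higher in 2 of 2 F0 LPD libraries than in either F0 CD library. Generation, age and own against paternal diet differ together between the responses and cannot be told apart.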

How the results depend on the processing

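The direction of Pltp was the same under every alternative in F1, in F0 and in the interaction. Its F1 call ended with intron reads (-0.33, adjusted p = 0.517), with the exon share as a covariate (-0.97, adjusted p = 0.116) and without either of the 2 libraries named above, and its F0 call ended with limma on log2(RPKM + 0.1) and log2(RPKM + 1) (0.80 and 0.77). Of the 10 genes 1 was called in F1, and 2 were with the likelihood ratio test, no filter on low counts, junction reads or all 4 groups in 1 fit, against 0 with intron reads or the exon share as a covariate. In F0 4 were called, and 2 were with library totals alone or all reads on the gene, 1 with all 4 groups in 1 fit, and 0 with limma at either pseudocount. The interaction was called for 1 gene, and for 2 with the likelihood ratio test or DESeq2 and 5 without the filter. The control groups differed in 2 genes, and in 1 with uniquely matching reads. Leaving out 1 library gave 0 to 2 genes in F1 (0 without F1 CD library 1 or pLPD library 2, 2 without F1 CD library 3), 1 to 5 in F0, 1 to 3 in the interaction and 1 to 3 between control groups; the lone F0 library left in a group is assumed to vary like the rest. Over all genes, with every library kept, the count called ran from 11 to 798 in F1 (164 as reported; 11 with the exon share as a covariate), from 47 to 1391 in F0 (364), from 74 to 890 in the interaction (189) and from 1466 to 3415 between control groups (2857). Leaving out 1 library gave 18 (without F1 CD library 1) to 510 (without F1 CD library 3) in F1, 107 (without F0 LPD library 2) to 475 (without F0 LPD library 1) in F0, 19 (without F0 CD library 2) to 395 (without F1 CD library 3) in the interaction and 793 (without F0 CD library 2) to 3030 (without pLPD library 1) between control groups. The wider list ran from 0 to 12, 1 to 16, 1 to 11 and 6 to 24 calls in the same order with every library kept, and from 0 to 7, 4 to 7, 1 to 5 and 5 to 21 with 1 left out, highest without F1 CD library 3 except in F0 (without F0 LPD library 1).

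None of the values that changed sign was called as reported, and the cause was not tested. In F1 they were Gpihbp1 with limma (-0.083 and -0.074), Angptl4 with intron reads (0.85), Vldlr with intron reads (-0.089) and the exon share as a covariate (-0.16), Cd36 with limma (-0.044 at both pseudocounts), Fabp4 with library totals alone (0.0023), intron reads (0.29) and the exon share (0.057), and Apoe (0.070) and Aqp7 (-0.20) with the exon share. In F0 they were Fabp5 with intron reads (1.04) and Apoe with limma (-0.010 at both). In the interaction they were Gpihbp1 with junction reads (0.30) and the exon share (0.17), and Apoe with the exon share (0.019). Between the control groups they were Angptl4 (-0.11) and Aqp7 (-0.0061) with the replicate block, Fabp4 (-0.14) and Aqp7 (-0.13) with junction reads, Aqp7 (-0.19), Apoe (-0.53) and Pltp (0.087) with intron reads, Pltp with limma (0.051 and 0.049), and Vldlr, -0.01 as reported, with DESeq2 (0.00053), DESeq2 size factors (0.00068), at least 10 reads (0.0024), no filter (0.0071), library totals (0.021), junction reads (0.072) and limma (0.12 and 0.11). Leaving out 1 library also crossed 0 for Gpihbp1 (-0.053 to 0.15), Angptl4 (-0.55 to 0.034) and Fabp4 (-0.15 to 0.015) in F1, for Gpihbp1 (-0.023 to 0.39) and Apoe (-0.0081 to 0.099) in F0, for Gpihbp1 in the interaction (-0.32 to 0.099), and for Angptl4 (-0.22 to 0.31), Vldlr (-0.064 to 0.071), Pltp (-0.24 to 0.088) and Aqp7 (-0.076 to 0.18) between control groups.

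Same-numbered libraries of the 2 diets did not deviate together in every pair in F1 (correlations 0.10, 0.02 and -0.01). Libraries of different number gave -0.14 to 0.13 there. In F0, with 2 libraries a group, the deviations in a group mirror each other. Same numbers gave 0.15 and different numbers -0.15, which is 1 value and cannot decide whether the libraries are paired. The labels give a shared number and no other link. With the replicate block 1 of the 10 genes was called in F1, 4 in F0, 1 in the interaction and 3 between control groups (Apoe in addition). Over all genes it called 260, 1391, 267 and 2864, against 164, 364, 189 and 2857 without it. In F0 the block called 11 of the wider list as higher and 5 as lower. Precision is limited by 2 or 3 libraries a group, and for Gpihbp1, Fabp5 and Apoe introns by 1 to 51 reads.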
